A study of Mus musculus with 10 samples.

Results

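Stiripentol-treated mSCLC-2405 cells were compared with vehicle-treated cells in 6 of the 10 RNA sequencing libraries of the series: controls 1, 2 and 3 and stiripentol libraries 3, 4 and 5. They were taken by name from the deposited expression table. mSCLC-2405 is a mouse small cell lung cancer (SCLC) line from a primary lung tumor, and all libraries come from this 1 line, grown in RPMI medium with fetal bovine serum. The tumor model carries conditional alleles of Rb1 and Trp53 that are deleted in the lung after intratracheal adenoviral Cre, so treated and control cells share both deletions. The treated cells received stiripentol at 250 μM for 48 h, and the controls received DMSO for the same time. The sample records do not say whether the libraries came from separate cultures, so every p-value measures the spread between these libraries, which may be technical. The other 4 libraries, controls 4 and 5 and stiripentol 1 and 2, had the same labels. They are used to show where the 6 libraries differ from them. They also enter the expression filter and an alternative fit, both over all 10 libraries.

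Stiripentol is an antiseizure medication that acts on GABA signalling and also inhibits lactate dehydrogenase. Complex I of the respiratory chain oxidizes NADH and is assembled from subunits encoded in the nucleus and subunits encoded by mitochondrial DNA. Cells whose respiration is impaired are known to engage transcription programs such as the ATF4-dependent integrated stress response, the NRF2 antioxidant program, the TFEB and TFE3 lysosomal program and the SREBP2 sterol program, each of which acts through a short DNA element near its target genes. The comparison addresses which of these programs changed at the RNA level after stiripentol.

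The 6 libraries held 55015760 to 65299372 reads, as recovered from the deposited log2 CPM values, which are read counts scaled to the total of each library (CPM) on a log2 scale. Across genes, the correlation was 0.983 to 0.997 among the controls and 0.997 among the stiripentol libraries, and 0.920 to 0.936 between control and stiripentol libraries. It was much the same between these libraries and the other 4 under the same label, at 0.920 to 0.939 for controls and 0.922 to 0.938 for stiripentol libraries. Control 3 stood somewhat apart from controls 1 and 2 for many genes described here. A gene without reads was given -4.82 in these 3 controls and -4.74 in the other 7 libraries, so the table was normalized in at least 2 sets, and in these 6 libraries the set and the treatment cannot be told apart. Markers of neuroendocrine cells were mostly low. Epcam, an epithelial surface protein, had 0 reads in all 6 libraries, and the neuroendocrine vesicle genes Chgb and Syp had at most 2 and at most 20, whereas Ncam1 had 5909 to 9215 reads. Yap1, which marks non-neuroendocrine SCLC, lay at 7.37 to 7.46 log2 CPM in the controls, and the epithelial keratin gene Krt8 lay at 10.05 to 10.31 and the mesenchymal filament gene Vim at 11.03 to 11.08. The neuroendocrine gene Insm1 had 0 reads in each control and 3, 10 and 10 in stiripentol 3, 4 and 5. Neurod1, Chga and Calca were not found by symbol in the table and were not analysed here. Markers of other cell types were low or moved with treatment. The summed level of 10 fibroblast markers fell from 635 to 697 CPM in controls to 164 to 186 CPM after stiripentol. Most of this sum came from the collagen III gene Col3a1 (mean 309 CPM in controls and 1.62 after stiripentol) and the growth factor receptor genes Pdgfrb (184 and 57.6 CPM) and Pdgfra (97.9 and 23.6 CPM), whereas Col1a1 had 53.0 and 88.2 CPM. Of 9 leukocyte markers in the table only Cd68, which is also a lysosomal membrane protein, passed 10 CPM, and Fcer1g was at 0. The summed level of 8 endothelial markers was 4.90 to 6.17 CPM in controls and 21.9 to 23.5 CPM in treated libraries. Alveolar markers summed to 73.7 to 82.1 CPM in controls and 33.0 to 35.2 CPM after stiripentol, mostly from the water channel gene Aqp5 (-1.18), and muscle markers to 9.43 to 11.6 and 28.8 to 35.8 CPM, with the filament gene Des at 1.70. In bulk RNA, fewer cells of a type and less RNA per cell cannot be told apart, and the part of other cells in the results was not tested.

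Stiripentol and control libraries differed for a large share of the genes. Over all 10 libraries, 12306 of the 26335 genes in the table averaged more than 0 log2 CPM and were tested. Of these, 4637 (37.7%) were called higher and 3322 (27.0%) lower at an adjusted p under 0.05 (limma with a mean-variance trend, Benjamini-Hochberg adjustment over all 12306 genes). At least a 2-fold change was added to the threshold for 889 higher genes (7.22%) and 778 lower genes (6.32%). The balance of both directions depended on the scaling, since median-of-ratios size factors gave 3955 higher and 3939 lower genes, of which 742 and 883 were at least 2-fold. The median log2 change over all genes was 0.08, with quartiles of -0.30 and 0.46, and the median standard error (SE) was 0.095. In every list below, a member is called when it passes the adjusted threshold, and the median of the list is to be read beside 0.08. Counts of called members are to be read beside the shares over all tested genes. These were 37.7% higher and 27.0% lower, and 7.22% and 6.32% at least 2-fold.

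**Figure D1:**
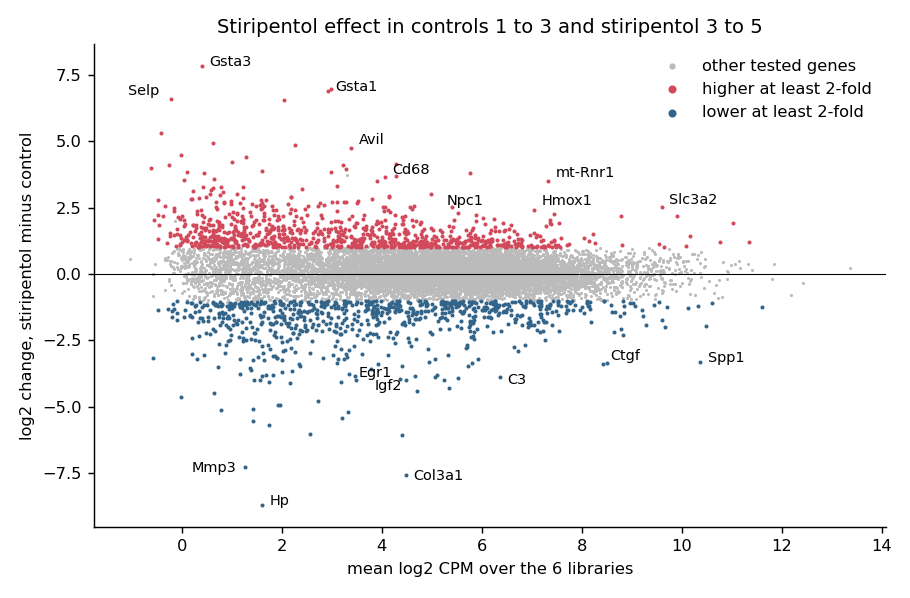
Each point is 1 of the 12306 tested genes, with its mean log2 CPM over the 6 libraries on the horizontal axis and its log2 change, stiripentol minus control, on the vertical axis. The 889 genes higher at least 2-fold and the 778 genes lower at least 2-fold are coloured, and the largest changes lie at low to middle levels, from Hp at -8.68 to Gsta3 at 7.83.

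The largest falls belonged to secreted proteins, receptors and matrix genes. Here and in the rankings below, genes were ranked among those called 2-fold whose groups do not overlap. Such separation was common: the treated libraries lay wholly above the controls for 41.6% of all tested genes and wholly below for 29.9%. Predicted genes and pseudogenes, known by their symbols, were left out. Hp, which encodes the hemoglobin-binding acute phase protein haptoglobin (chr8:109575128-109579172, minus strand, GRCm38), had 3552, 4593 and 3482 reads in controls 1 to 3 and 6, 9 and 5 reads in stiripentol 3 to 5. Its log2 change was -8.68 ± 0.21 (SE, 3 against 3 libraries, limma adjusted p = 7.44e-07), a 411-fold lower level. Col3a1, the fibrillar collagen III chain (chr1:45311538-45349706, plus strand), stood at 8.36, 8.18 and 8.27 log2 CPM in controls and 0.70, 0.49 and 0.95 after stiripentol, a change of -7.56 ± 0.12. Mmp3, the protease stromelysin-1, fell from 5.12, 5.34 and 4.24 to -2.82, -2.18 and -2.08 log2 CPM. The groups of these 3 genes do not overlap, as the ranking required. The other genes among the 10 largest falls were Il1rl1, the receptor of interleukin 33 (-6.06), C1qtnf7, a secreted C1q-domain protein (-6.03), Ace, which encodes angiotensin-converting enzyme (-5.68), Il18r1, a chain of the interleukin 18 receptor (-5.54), Mgp, the calcification inhibitor matrix Gla protein (-5.40), Tm4sf1, a membrane protein of the tetraspanin-like family (-5.18), and Stra6, the retinol uptake receptor (-5.12).

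The largest rises started from near-zero levels. Gsta3, a glutathione S-transferase (chr1:21240589-21265661, plus strand), had 4, 1 and 6 reads in controls and 1203, 1055 and 1161 reads after stiripentol, a log2 change of 7.83 ± 0.32 (limma, adjusted p = 3.83e-06) that depends on the prior count because the control reads are so few. Other members of the family followed, Gsta1 at 6.89 and Gsta2 at 6.56. Gm3776, a sequence near-identical to Gsta1 and left out of this ranking by its symbol, rose by 6.96. Selp, the adhesion receptor P-selectin, rose by 6.59 from 2, 2 and 7 reads to 462, 526 and 461 reads. The remaining genes among the 10 largest rises were Wnt7a, a Wnt ligand (4.95), Sspo, the giant secreted protein SCO-spondin (4.84), Avil, the actin-binding protein advillin (4.74), Clic5, a chloride intracellular channel protein (4.47), Tcam1, a testicular cell adhesion gene (4.42), and Map3k9, a mixed-lineage kinase (4.20). Control 3 lay above controls 1 and 2 for Wnt7a, Sspo, Avil and Clic5, and still below each treated library. Exons of Avil overlap those of Tsfm on the other strand, and whether the counting used strand is not given in the sources used here.

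Among genes with a mean of at least 6 log2 CPM, mt-Rnr1 (3.51) and the amino acid transporter chain Slc3a2 (2.51) rose most. Next came the heme-degrading enzyme Hmox1 (2.40), Ftl2, a ferritin light chain sequence (2.19), the peroxisomal oxidase gene Acox2 (2.12) and the cholesterol transporter Npc1 (2.05). Ftl2 was not found by symbol in the annotation used here, so its near-identical copies were not looked for. Whether its reads can be told apart from those of the ferritin light chain gene Ftl1 was not tested. The falls were led by the complement component C3 (-3.86), the matricellular genes Ctgf (-3.37) and Thbs1 (-3.36), the secreted phosphoprotein osteopontin Spp1 (-3.31), the chemokine Cxcl12 (-2.90) and the neuronal phosphoprotein gene Dpysl3 (-2.75). Spp1, for example, went from 12.21, 12.23 and 11.66 to 8.83, 8.54 and 8.79 log2 CPM.

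**Figure D2:**
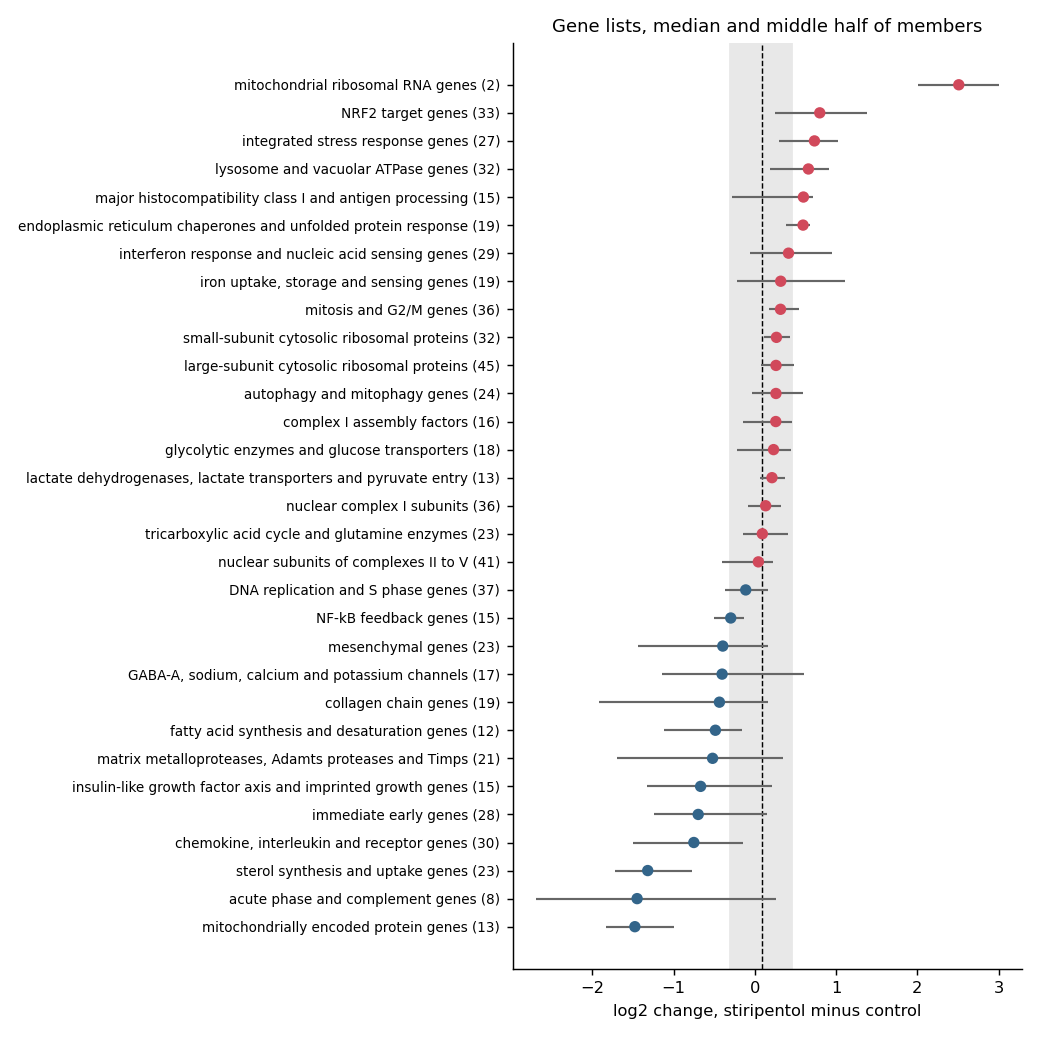
For each gene list, the point is the median log2 change of its tested members (their number in parentheses) and the line runs from the lower to the upper quartile of the members, in red for a median above 0 and in blue below 0. The dashed line and grey band give the median (0.08) and quartiles (-0.30 to 0.46) of all 12306 genes. NRF2 targets, integrated stress response and lysosomal genes lie above the median of all genes, and sterol synthesis and mitochondrially encoded protein genes lie below the grey band.

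Transcripts of the mitochondrial genome split by class. Mitochondrial DNA encodes 13 proteins of complexes I, III, IV and V and 2 ribosomal RNAs. All but 1 of the 13 protein genes were called lower, 10 of them at least 2-fold, with a median log2 change of -1.48, and 3 of these calls (mt-Atp6, mt-Co1 and mt-Nd4l) were lost when genes of any level were tested. By contrast, both ribosomal RNA genes were higher. mt-Rnr1, the 12S ribosomal RNA, rose from 5.39, 5.51 and 5.84 to 8.82, 9.15 and 9.29 log2 CPM (3.51 ± 0.15, limma, adjusted p = 4.04e-06), and mt-Rnr2, the 16S ribosomal RNA, rose by 1.51. The complex I transcripts mt-Nd1 (-1.93), mt-Nd6 (-1.92), mt-Nd3 (-1.83), mt-Nd4 (-1.73), mt-Nd5 (-1.59), mt-Nd2 (-1.48) and mt-Nd4l (-0.89) fell, as did the complex III transcript mt-Cytb (-1.99). mt-Nd1 stood at 10.26, 10.66 and 9.86 in controls and 7.91, 8.36 and 8.71 after stiripentol. The ATP synthase transcript mt-Atp6 fell by 1.00, and its partner mt-Atp8 (-1.45) and the complex IV transcripts mt-Co3 (-1.11) and mt-Co1 (-0.80) also fell. mt-Co2 was at 7.85, 8.40 and 8.15 in controls and at 7.81, 7.87 and 8.35 after stiripentol, so its groups overlapped (-0.12, limma, adjusted p = 0.559), and without control 2 its value was 0.01. Its sequence is identical to that of Gm28661 over 681 bases, which had 302194 reads in controls and 161885 after stiripentol and a log2 change of -0.80, against 52797 and 44964 reads for mt-Co2, so the level of this transcript is uncertain. The share of all reads counted under mitochondrial gene symbols was 1.22% to 1.63% in controls and 0.615% to 0.903% in treated libraries. This share leaves out reads counted under near-identical copies. Near-identical nuclear copies in the table, such as those of mt-Co3 (Gm28437) and mt-Atp6 (Gm10925), had many reads, and the split of reads between a gene and its copy is uncertain. Gm10925 had 427152 reads in controls and 185618 after stiripentol (-1.10), against 48641 and 23179 for mt-Atp6. The records name a total RNA kit and the methods a kit for polyadenylated RNA, and the part of the preparation in the ribosomal RNA levels was not tested. Other RNAs that mostly lack poly(A) tails moved with treatment too: 3 of 4 tested histone genes were lower (median -1.29, summed level 49.0 to 56.4 CPM in controls and 24.1 to 26.4 after stiripentol), and 4 of 6 tested abundant non-coding RNAs were higher and 1 lower (median 0.53).

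**Figure D3:**
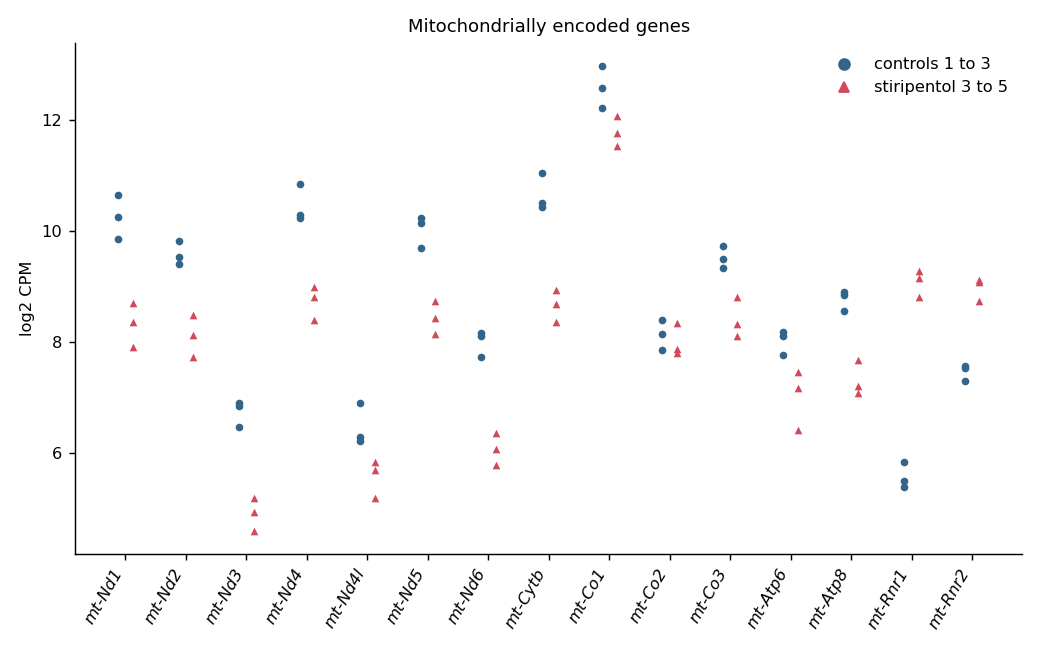
The log2 CPM of the 13 mitochondrially encoded protein genes and of the 2 mitochondrial ribosomal RNA genes is shown for controls 1 to 3 (circles) and stiripentol 3 to 5 (triangles). The treated libraries lie below the controls for 12 protein genes and above them for both ribosomal RNA genes, and they overlap the controls for mt-Co2. Over all tested genes, they lay wholly below the controls for 29.9% and wholly above them for 41.6%.

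Nuclear genes of the respiratory chain moved little and in both directions. Of 36 nuclear complex I subunits, 14 were higher and 7 lower, none by 2-fold, with a median of 0.13. The shares over all tested genes were 37.7% higher and 27.0% lower. Ndufa5 rose by 0.74 and Ndufc2 fell by 0.51. Complex I assembly factors had 9 of 16 higher and 2 lower, led by Ndufaf6 (0.70), with Tmem70 lower (-0.38). Of 41 tested nuclear subunits of complexes II to V, 13 were higher and 17 lower. Cox6a2, the heart and muscle isoform of a cytochrome c oxidase subunit, rose by 3.28 from -0.35, -0.61 and -0.31 to 2.79, 3.09 and 2.71 log2 CPM, and Uqcrh, the hinge protein of complex III, fell by 1.05. Sqor, a mitochondrial enzyme that oxidizes sulfide and passes electrons to ubiquinone, rose by 1.11 and was the only 1 of 8 tested genes of ubiquinone-reducing dehydrogenases outside complex I called at least 2-fold. Genes for mitochondrial DNA maintenance and RNA processing had 8 of 28 higher and 5 lower, with Mgme1, a mitochondrial exonuclease, at 0.93 and Fastkd5, an RNA-processing factor, at -0.86, and exons of both overlap those of a neighboring gene with as many reads or more. Tfam, the mitochondrial transcription and packaging factor, was not called (0.06, limma, adjusted p = 0.594), and the coactivator gene Ppargc1a rose by 1.18. Mitochondrial ribosomal proteins had 40 of 77 higher and 13 lower, with a median of 0.24.

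Sterol synthesis genes fell almost throughout. Of 23 tested genes for cholesterol synthesis and uptake, 22 were lower, 15 at least 2-fold, and only Tm7sf2, a sterol reductase gene, was higher (0.28). The median was -1.32, and the mean level of the list was 6.59, 6.47 and 6.03 log2 CPM in controls 1 to 3 and 5.05, 4.98 and 5.01 after stiripentol. Idi1, which makes the isoprene unit dimethylallyl diphosphate, fell from 7.38, 7.17 and 6.58 to 4.44, 4.26 and 4.39 (-2.68 ± 0.19, limma, adjusted p = 2.48e-05). Control 3 was the lowest control and the groups stayed apart. Members outside the rule for named genes, chosen after their values were seen, lay along the pathway: Hmgcs1 (-2.13) at its start, Fdps (-1.69) and Sqle (-1.83) in its middle, Cyp51 (-1.32) toward its end, and the transcription factor gene Srebf2 (-1.03). Fatty acid synthesis and desaturation genes had 7 of 12 lower, 5 at least 2-fold, and 2 higher. The elongase gene Elovl6 fell by 1.76 and the stearoyl-CoA desaturase gene Scd1 by 1.26, from 8.20, 7.95 and 7.78 to 6.70, 6.70 and 6.74.

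The DNA element bound by SREBP2 was looked for because this list moved together. In the 250 bases before each RefSeq transcription start (GRCm38.p6), the letters TCACNCCAC on either strand occurred in 1 of the 16 tested list members with a promoter sequence (6.25%) and in 108 of 9142 tested genes (1.18%). A match describes letters, not a bound site. The stretch below holds the match, in capitals, in the promoter of Hmgcs1, which makes the HMG-CoA of the pathway (chr13:119690194-119690242, plus strand, 128 bases from the start).
Hmgcs1: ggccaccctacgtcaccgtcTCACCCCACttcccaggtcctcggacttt

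NRF2 target genes rose in most cases. Of 33 tested targets of NRF2, the regulator of antioxidant and detoxification genes, 24 were higher, 14 of them at least 2-fold, and 2 were lower, with a median of 0.80. The mean level of the list rose from 5.50, 5.55 and 5.67 to 6.93, 6.90 and 6.92 log2 CPM. Gsta1 went from 37, 19 and 96 reads to 4869, 4913 and 4495 reads. Gsta1, Gsta2 and another sequence, Gm3776, are near-identical (97.24% between Gsta1 and Gsta2, 99.54% between Gsta1 and Gm3776), and all 3 rose, so the share of each is uncertain. Hmox1 rose from 5.36, 5.58 and 6.62 to 8.23, 8.31 and 8.20 (2.40 ± 0.29, limma, adjusted p = 0.000282), with control 3 closest to the treated libraries. Ftl1, the ferritin light chain, rose by 1.92 from 9.76, 9.96 and 10.49 to 12.05, 12.05 and 11.88, and its near-identical copy Ftl1-ps1 rose too. Members that were chosen after their values were seen included the glutathione synthesis gene Gclm (1.29), the sulfiredoxin gene Srxn1 (1.16), catalase Cat (1.38) and the epoxide hydrolase gene Ephx1 (1.66). The gene of NRF2 itself, Nfe2l2, was at 7.87, 8.07 and 7.64 in controls and 7.60, 7.65 and 7.68 after stiripentol and was not called (-0.22, limma, adjusted p = 0.104). It was called lower without control 3 (-0.32), when values were centred on the median (-0.28) and with size factors (-0.29). Iron genes overlapped this list in part, with 10 of 19 higher and 5 lower, and Lcn2, which binds iron-carrying siderophores, rose by 1.41.

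The antioxidant response element TGACNNNGC was found on either strand in the 250 promoter bases of 7 of 27 list members (25.9%) and 13.9% of all tested genes. Of those 7 members 5 were called higher and 1 lower, against 24 and 2 of the 33 tested list members. Whether a match went with a rise was not tested. The 3 stretches below are from the called members with a match whose change was largest: Gsta3 (chr1:21240444-21240492, plus strand), the drug efflux pump gene Abcc4 (chr14:118676932-118676974, minus strand) and Gclm (chr3:122245403-122245451, plus strand, match on the other strand). Capitals mark the match and each stretch runs 5′ to 3′ on the strand of its gene.
Gsta3: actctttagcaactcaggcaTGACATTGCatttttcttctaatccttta
Abcc4: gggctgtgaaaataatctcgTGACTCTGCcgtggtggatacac
Gclm: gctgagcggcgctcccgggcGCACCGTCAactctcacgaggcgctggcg

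Genes of the integrated stress response rose in the majority. Of 27 tested genes, 19 were higher, 7 at least 2-fold, and 4 were lower, 2 at least 2-fold, with a median of 0.73. Atf4, the central transcription factor, rose from 9.04, 9.28 and 8.92 to 9.83, 9.87 and 9.83 (0.77 ± 0.09, limma, adjusted p = 0.000321). Slc3a2, the heavy chain of amino acid transporters (chr19:8706882-8723369, minus strand), rose from 8.15, 8.55 and 8.36 to 10.84, 10.96 and 10.80, and Atf3, a stress-induced transcription factor, rose by 2.51 from 3.67, 3.96 and 4.81. Each of these genes had its 3 treated libraries above its 3 controls, as did 41.6% of all tested genes. Other members, chosen after their values were seen, were the mitochondrial folate enzyme gene Aldh1l2 (2.37), the eIF2α phosphatase subunit Ppp1r15a (2.02), Ddit3, which encodes CHOP (1.92), the transsulfuration gene Cth (1.83), asparagine synthetase Asns (0.86) and the serine synthesis gene Phgdh (0.60), while Psat1 (0.18) and Shmt2 (0.06) were not called. The 2 members that fell at least 2-fold were Stc2, the secreted hormone stanniocalcin 2, from 5.83, 5.88 and 5.49 to 3.27, 3.28 and 3.45 (-2.40), and the transcription factor Atf5 (-1.22). Exons of Atf5 and Nup62 overlap on opposite strands. Endoplasmic reticulum chaperones and unfolded protein response genes had 16 of 19 higher and none lower, none at least 2-fold, with a median of 0.59, and the protein disulfide isomerase gene Pdia4 was highest at 0.91. Cytosolic heat shock chaperones had 9 of 17 higher and 2 lower, led by the small heat shock protein gene Hspb8 (1.34).

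The composite element of CHOP and ATF4, TGATGNAA, was found on either strand in 7 of 24 stress response promoters (29.2%) and 2.24% of all tested genes. All 7 members with a match were called higher, as were 19 of the 27 tested list members. Whether a match went with a rise was not tested. The stretches are from Atf3 (chr1:191183416-191183463, minus strand), the cystine transporter gene Slc7a11 (chr3:50443633-50443680, minus strand) and the glutathione-degrading enzyme gene Chac1 (chr2:119351029-119351076, plus strand), whose log2 changes were 2.51, 0.87 and 0.74. Capitals mark each match, as TGATGNAA on the strand of the gene or its reverse complement where the match is on the other strand, and Slc7a11 holds 1 of each.
Atf3: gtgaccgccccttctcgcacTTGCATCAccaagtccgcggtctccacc
Slc7a11: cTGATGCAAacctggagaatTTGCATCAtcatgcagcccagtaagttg
Chac1: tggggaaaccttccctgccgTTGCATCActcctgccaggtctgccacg

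Lysosomal genes were higher as well. Of 32 tested genes for lysosomal enzymes, membrane proteins and the vacuolar ATPase, 24 were higher, 7 at least 2-fold, and 5 were lower, with a median of 0.66 and a mean level of 6.42, 6.47 and 6.78 in controls and 6.98, 6.98 and 6.98 after stiripentol. Npc1, which exports cholesterol from lysosomes, rose from 4.95, 4.95 and 5.75 to 7.21, 7.26 and 7.34 (2.05 ± 0.20, limma, adjusted p = 0.000113), and the sialidase gene Neu1 rose by 1.61 from 5.19, 5.21 and 6.22 to 7.19, 7.17 and 7.10. Control 3 was the highest control for both. The lower members were the melanocyte and lysosome transcription factor Mitf (-1.83), cathepsin C Ctsc (-1.63), and, chosen after their values were seen, Ctsz (-1.26), Gusb (-0.96) and Ctsh (-0.80). Autophagy and mitophagy genes had 15 of 24 higher and 5 lower. The receptors Optn (1.66) and Sqstm1 (1.44) rose, Sqstm1 from 9.22, 9.36 and 9.78 to 10.88, 10.96 and 10.85, and Atg9b, a lipid scramblase gene, fell by 1.65. Among AMPK subunits and brakes on mTORC1, 7 of 17 were higher and 4 lower, with the AMPK catalytic subunit gene Prkaa2 at 1.50 and folliculin Flcn at 1.29. Cd68 rose by 3.63, from 2.05, 2.07 and 2.64 to 5.78, 6.05 and 5.83 log2 CPM. Proteasome subunits had 9 of 31 higher and 2 lower, from -0.53 for Psmd1 to 0.81 for Psmd11.

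The CLEAR element GTCACGTG, which TFEB and TFE3 bind, was found on either strand in 6 of 24 lysosomal promoters (25%) and in 4.07% of all tested genes. All 6 members with a match were called higher, as were 24 of the 32 tested list members. Whether a match went with a rise was not tested. The stretches are from the vacuolar ATPase gene Atp6v0b (chr4:117887340-117887387, minus strand, log2 change 1.39), the cathepsin D gene Ctsd (chr7:142388045-142388077, minus strand, 0.83) and the lysosomal membrane gene Lamp1 (chr8:13159113-13159160, plus strand, 0.65). For Ctsd and Lamp1 the match is on the other strand.
Atp6v0b: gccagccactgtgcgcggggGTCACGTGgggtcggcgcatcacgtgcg
Ctsd: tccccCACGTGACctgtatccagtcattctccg
Lamp1: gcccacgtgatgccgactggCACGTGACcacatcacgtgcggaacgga

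**Figure D4:**
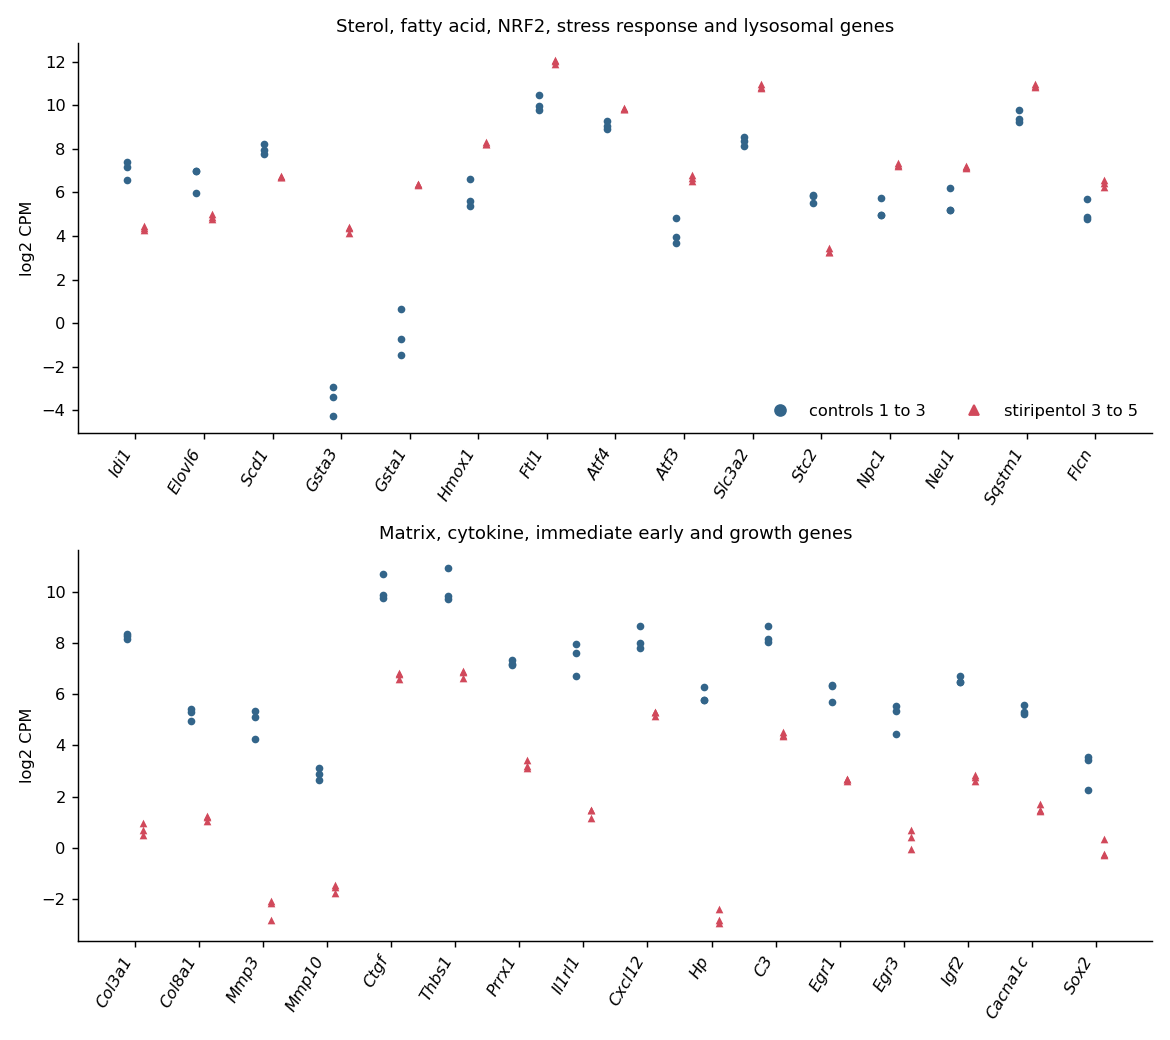
The log2 CPM of 15 sterol, fatty acid, NRF2, stress response and lysosomal genes (top) and of 16 matrix, cytokine, immediate early and growth genes (bottom) is shown in controls 1 to 3 (circles) and stiripentol 3 to 5 (triangles). No gene shown has overlapping groups. Over all tested genes, the treated libraries lay wholly above the controls for 41.6% and wholly below them for 29.9%. The 3 treated libraries lie closer together than the controls for most genes shown, as for Slc3a2 at 10.84, 10.96 and 10.80.

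Central carbon metabolism showed smaller changes. The counts of its lists stand beside 37.7% higher and 27.0% lower over all tested genes. Glycolytic enzymes and glucose transporters had 8 of 18 higher and 4 lower, with a median of 0.23 and 1 gene at least 2-fold higher. That gene was Hk2, an inducible hexokinase, which rose from 6.22, 6.19 and 6.76 to 7.42, 7.45 and 7.47 (1.05 ± 0.14, limma, adjusted p = 0.000529). Ldha, the lactate dehydrogenase A subunit, was at 9.48, 9.50 and 8.73 in controls and 8.85, 8.66 and 8.67 after stiripentol (-0.51, limma, adjusted p = 0.0524). Control 3 lay within the treated range, and without it Ldha was called lower at -0.76. It was also called lower with all 10 libraries in the fit (-0.51), with a replicate block (-0.51), with totals that left out mitochondrial and top genes (-0.51), when values were centred on the median (-0.57) and with size factors (-0.59). Ldhb, the other lactate dehydrogenase subunit, had 1 read or none in each of the 6 libraries. Of 13 tested genes for lactate dehydrogenases, lactate transport and pyruvate entry, 6 were higher and none lower, led by Pdhb, a subunit of pyruvate dehydrogenase (0.85). Hypoxia-inducible genes had 8 of 16 higher and 3 lower: Car9, a carbonic anhydrase (2.06), and P4ha2, a collagen prolyl hydroxylase (1.26), rose, and the hypoxia factor Epas1 (-3.25) and the collagen cross-linking oxidase Lox (-1.86) fell. Exons of Car9 overlap those of Gm12454 on the other strand. Hif1a was not called (-0.13, limma, adjusted p = 0.142), although it was called lower without control 1 (-0.20), when centred on the median (-0.19) and with size factors (-0.21). In the tricarboxylic acid cycle and glutamine list, 11 of 23 genes were higher and 6 lower, with pyruvate carboxylase Pcx (1.43) and the aspartate aminotransferase Got1 (1.25) at the top. Fatty acid oxidation and ketone genes had 9 of 23 higher and 8 lower, and without stiripentol 3 only 5 were higher. Bdh1, the ketone body dehydrogenase, rose by 2.62 and Cpt1c, a carnitine palmitoyltransferase of neurons, fell by 1.85.

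Genes of the extracellular matrix and of mesenchymal cells fell in large part. Of 19 tested collagen chain genes, 10 were lower, 7 at least 2-fold, and 2 were higher. Besides Col3a1, Col8a1 fell from 5.30, 4.98 and 5.42 to 1.18, 1.05 and 1.22 (-4.08) and Col1a2 by 2.88, while Col20a1 rose by 2.51. Col1a1, the partner chain of Col1a2 in collagen I, was not called: it was at 6.11, 6.02 and 4.67 in controls and 6.65, 6.28 and 6.44 after stiripentol (0.86, limma, adjusted p = 0.063), and it was called higher without control 1 (1.11), control 2 (1.07) or control 3 (0.39). Matrix metalloproteases, Adamts proteases and their inhibitors had 14 of 21 lower and 6 higher. Mmp10 fell by 4.47, and Mmp17, a membrane-anchored protease, was called higher at 1.27 (limma, adjusted p = 0.0281), with control 3 at 2.56 against 1.07 and 0.79 in the other controls. The call of Mmp17 was lost without control 1, control 2, stiripentol 3, stiripentol 4 or stiripentol 5, at values of 0.93 to 1.32. Mesenchymal genes had 11 of 23 lower, 8 at least 2-fold, and 6 higher. The shares over all tested genes were 27.0% lower, 6.32% at least 2-fold lower, and 37.7% higher. Prrx1, a mesenchymal homeobox factor, fell from 7.34, 7.16 and 7.19 to 3.21, 3.12 and 3.43 (-3.98 ± 0.10, limma, adjusted p = 7.44e-07), and the YAP target Ctgf fell from 9.90, 9.76 and 10.70 to 6.83, 6.62 and 6.79. Cnn1, the smooth muscle protein calponin, rose by 1.34, and Cdh11 rose by 1.30 from 0.11, 0.00 and -0.08 log2 CPM, with 7 near-identical sequences in the table that had more reads. The fibroblast marker Dcn fell by 2.00, and Pdgfra (-2.03) and Pdgfrb (-1.68) fell with these lists, together with the sum of all 10 markers given above, and the part of fibroblasts in these changes was not tested. Integrin and laminin subunits went both ways, with 9 of 22 higher and 6 lower, near the 37.7% and 27.0% of all tested genes. Lamb3, a laminin 332 chain, rose from 2.10, 2.06 and 2.47 to 6.39, 6.37 and 6.32 (4.15) and Itgb7, a leukocyte integrin chain, from 4.01, 4.08 and 3.50 to 7.69, 7.67 and 7.67 (3.82), whereas Itga1 (-1.46) and Itgb5 (-1.19) fell.

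Cytokine genes fell while several interferon-stimulated genes rose. Of 30 tested chemokine, interleukin and receptor genes, 19 were lower, 14 at least 2-fold, and 2 were higher, with a median of -0.75. Il1rl1 went from 7.97, 7.63 and 6.72 to 1.48, 1.18 and 1.48 log2 CPM, Cxcl12 from 8.03, 7.81 and 8.67 to 5.32, 5.15 and 5.33, and the lung chemokine Cxcl15 fell by 3.16. The 2 higher genes were the interferon-inducible chemokine Cxcl10 (2.31) and Il15, a growth factor of lymphocytes (1.48). NF-kB feedback genes had 9 of 15 lower and 3 higher, with the adhesion molecule Vcam1 at -2.65 and the nuclear inhibitor Nfkbiz at -1.04. Acute phase and complement genes had 5 of 8 lower and 2 higher. C3 fell from 8.05, 8.17 and 8.67 to 4.43, 4.37 and 4.51. Interferon response and nucleic acid sensing genes had 13 of 29 higher, 7 at least 2-fold, and 4 lower. Of all tested genes, 37.7% were called higher, 7.22% at least 2-fold. Rsad2, which encodes the antiviral enzyme viperin, had 16, 20 and 45 reads in controls and 242, 246 and 231 reads after stiripentol (3.29), and Tmem173, the DNA sensor adaptor STING, fell by 1.21. Class I histocompatibility and antigen processing genes had 9 of 15 higher and 4 lower. The peptide transporter Tap1 was at 1.10, and the list member Cd74, the invariant chain of class II molecules, at 1.70.

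Immediate early and growth factor genes were lower. Of 28 tested immediate early genes, which respond within minutes to growth signals, 17 were lower, 9 at least 2-fold, and 3 were higher, with a median of -0.70. Egr1 fell from 6.36, 6.32 and 5.71 to 2.68, 2.61 and 2.70 (-3.47 ± 0.17, limma, adjusted p = 5.97e-06) and Egr3 from 5.56, 5.34 and 4.43 to -0.04, 0.67 and 0.43 (-4.76). Atf3 and the phosphatase gene Dusp4 (1.83) rose. In the insulin-like growth factor and imprinted growth list, 8 of 15 genes were lower and 3 higher. Igf2, the fetal growth factor, fell from 6.48, 6.50 and 6.74 to 2.84, 2.62 and 2.75 (-3.84), and the RNA-binding protein gene Igf2bp3 fell by 2.85. Igf2r, which clears IGF2, rose by 1.09 and the imprinted gene Peg3 by 1.94. GABA-A, sodium, calcium and potassium channel genes had 17 of 53 above the expression filter, 10 of them lower and 6 higher. The L-type calcium channel gene Cacna1c fell from 5.32, 5.23 and 5.60 to 1.43, 1.48 and 1.72 (-3.84). The potassium channel gene Kcnk5 fell by 2.30. In the retinoid list, 2 of 12 genes were higher and 4 lower, with the retinol carrier Rbp4 at 1.64.

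Cell cycle genes went in both directions. DNA replication and S phase genes had 11 of 37 lower and 7 higher, with thymidine kinase Tk1 (-1.19) and cyclin E1 Ccne1 (-1.09) at least 2-fold lower. The count of lower members rested on single libraries, with 23 without control 3, 7 without control 2, 6 without stiripentol 4 and 7 without stiripentol 5. Mitosis and G2/M genes had 17 of 36 higher and 1 lower, with Dlgap5, a spindle protein (1.30), and the phosphatase Cdc25c (1.01) highest, and 11 were higher without stiripentol 3 or without stiripentol 5. Ccnd1, cyclin D1, fell from 9.17, 9.03 and 8.65 to 8.02, 7.88 and 7.92 (-1.01), and the CDK inhibitor gene Cdkn2b fell by 1.03. In the Bcl2 family, 6 of 15 genes were higher and 4 lower, near the shares over all tested genes (37.7% and 27.0%). The genes of the death-promoting proteins Bik (1.34) and Noxa, Pmaip1 (1.18), were highest. Myc fell by 0.58 from 7.65, 7.69 and 7.45 to 6.92, 7.07 and 7.07, and its partner-network gene Mlx rose by 0.79. Mxd3 was called lower at -0.88, and not called without stiripentol 4 (-0.73). Mycl was not called (-0.38, limma, adjusted p = 0.18), but was called at -0.67 without control 3. Ribosomal proteins of the large subunit had 25 of 45 higher and 1 lower and those of the small subunit 20 of 32 higher and none lower, with medians of 0.26 and 0.27 and Rpl12 as the single gene at least 2-fold higher (1.06).

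Lineage genes were mostly too low to test, and those tested went in both directions. Of 20 SCLC lineage transcription factors, 9 passed the filter, of which 5 were lower and 3 higher. Sox2, a stem cell and neural factor, fell from 753, 630 and 305 reads to 47, 47 and 68 reads (-3.14), and the endodermal factor Foxa1 fell by 1.08, whereas its paralog Foxa2 rose from 1.90, 1.94 and 1.59 to 2.88, 2.74 and 2.82 log2 CPM (1.00). Yap1 fell by 0.55, from 7.46, 7.45 and 7.37 to 6.86, 6.86 and 6.91. Pou2f3, the tuft cell factor, did not pass the filter and had 57, 49 and 129 reads in controls and 13, 16 and 8 after stiripentol. Among 5 tested neuroendocrine and neuronal genes, 4 were higher, including Uchl1 (1.50), a neuronal ubiquitin hydrolase, and the neuronal tubulin Tubb3 (1.07, limma, adjusted p = 0.0195), whose call was lost without stiripentol 3, stiripentol 4 or stiripentol 5 (1.04 to 1.09). Among 5 tested tuft cell genes, Avil was the highest and Dclk1, a microtubule-associated kinase, the lowest (-1.64). Epithelial genes had 6 of 10 higher and 4 lower, with the tight junction gene Cldn4 at 1.83 and the transcription factor Elf3 at 1.77. In the Notch list, 4 of 15 genes were higher and 6 lower: the ligand Dll1 (1.30) and the target Hey1 (1.09) rose, and Lfng, which modifies Notch receptors (-1.29), and Rbpj, the DNA-binding partner of Notch (-1.12), fell. Rbpj has a near-identical copy in the table with many reads. Among 16 tested drug-metabolizing genes, the aldo-keto reductase gene Akr1b7 (3.94) and the P450 gene Cyp2s1 (2.51) rose and the sulfotransferase gene Sult1a1 fell from 4.52, 4.48 and 4.30 to -0.56, -0.57 and -0.39 (-4.94).

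The 6 libraries were set against the other 4, in which the same treatment had been given, to see where the effect differed. The 2 sets share no library. Across the 12306 genes, the log2 changes of the 2 sets had a Pearson correlation of 0.401 and a Spearman correlation of 0.394, as a description over genes that are not independent. At least 2-fold in both sets, 187 genes were higher and 521 lower, whereas 173 were higher here and lower there and 8 lower here and higher there. An interaction term in limma tested the difference itself. By at least 2-fold, the effect was higher in the 6 libraries for 3063 genes (24.9%) and lower for 610 (4.96%). These shares depend on the scaling: the median difference over all genes was 0.33 as deposited and -0.08 with median-of-ratios size factors, and of all genes called for the difference 71.5% were on the higher side as deposited and 45.9% with size factors. A difference for a single gene is therefore to be read beside 0.33.

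NRF2 target genes differed between the sets. For 26 of the 33 tested NRF2 targets, the effect was at least 2-fold higher in the 6 libraries and for none lower, and the median change was 0.80 here and -1.05 in the other set. In their controls the 2 sets started far apart, since Gsta1 had 37, 19 and 96 reads in controls 1 to 3 against 1860 and 539 in controls 4 and 5, at 4.87 and 4.59 log2 CPM, and fell there to 3.20 and 3.12. Hmox1 was at 8.94 and 8.77 in controls 4 and 5 and at 7.47 and 7.62 in stiripentol 1 and 2. After treatment the levels of Gsta1 (6.35 to 6.40 here) and Hmox1 (8.20 to 8.31) were higher in the 6 libraries. Glycolytic genes also split, with 9 of 18 at least 2-fold higher in effect and medians of 0.23 and -1.01, and so did interferon response genes, with 18 of 29 and medians of 0.41 and -0.59. Collagen III fell in both sets, by 7.56 here from a control level 3 or more log2 units above that of the other set, and by 2.95 there. Sterol genes, in contrast, had close medians of -1.32 and -1.69, and 3 of 23 differed by at least 2-fold in 1 direction and 1 in the other. The integrated stress response was higher in both sets, with medians of 0.73 and 1.18, and mitosis genes had medians of 0.32 and 1.28, with 15 of 36 at least 2-fold lower in effect here. Mitochondrially encoded protein genes fell in both, with medians of -1.48 and -2.18, and 5 of 13 differed upward and 1 downward, the last being mt-Co1, which was at -0.80 here and 0.49 there.

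**Figure D5:**
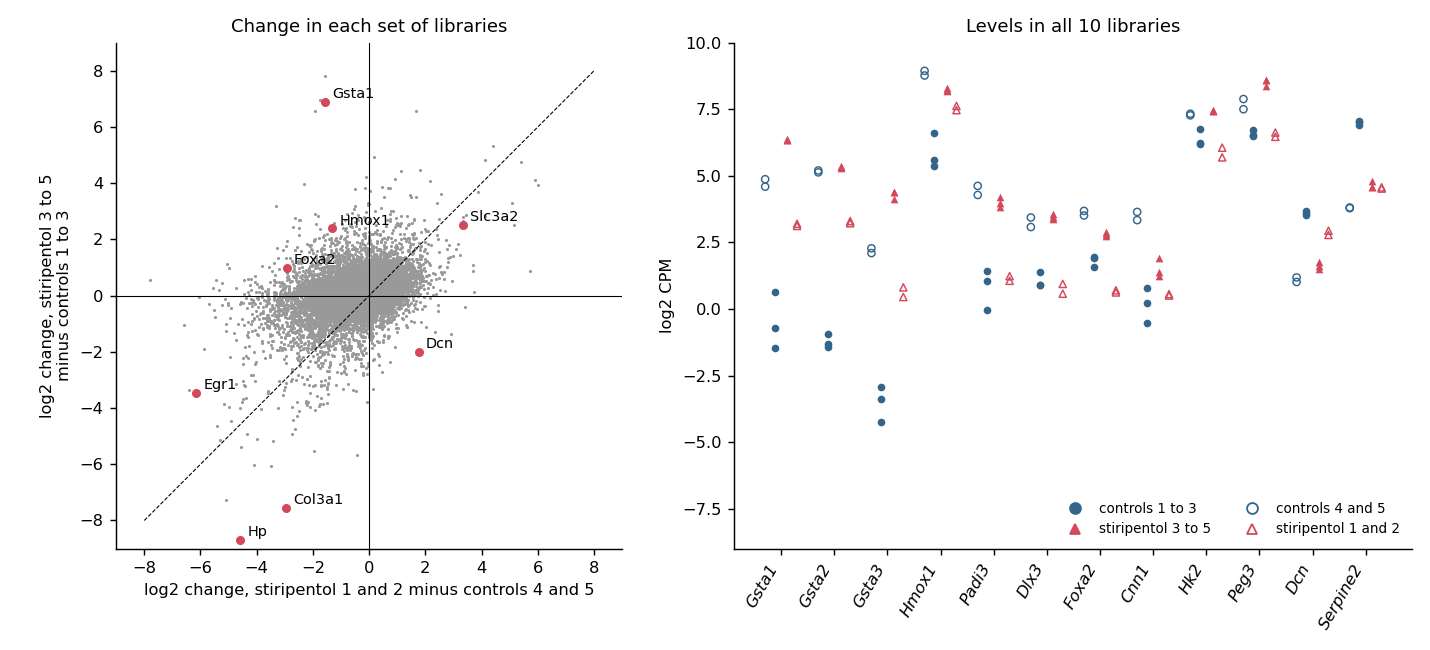
Left, the log2 change of each of the 12306 tested genes in stiripentol 1 and 2 minus controls 4 and 5 (horizontal) and in stiripentol 3 to 5 minus controls 1 to 3 (vertical), with the dashed line at equal change and 8 named genes in red. Right, the log2 CPM of 12 genes in all 10 libraries, with filled symbols for the 6 libraries and open symbols for the other 4. Gsta1, at 6.89 in the 6 libraries and -1.58 in the other 4, lies far from the dashed line, and its controls differ between the sets.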

How the data were processed

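RNA was sequenced from mSCLC-2405 cells. The methods name Lexogen QuantSeq 3′ mRNA libraries, while the sample records name TruSeq total RNA. The deposited table holds log2 CPM values that the authors made with GENAVi, and 10 columns of their own comparisons (group means, p-values, q-values, ratios and log2 ratios), which were not used. The submitters' processing notes name the mm10 build. The aligner, counter and annotation are not given in the sources used here. The 6 libraries were chosen by column name, and 0 sample columns were unmapped. Whole reads were recovered within a tolerance of 0.05 after removing the prior of each library, and depth covers counting error only.

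The log2 values were fitted with limma 3.58.1 in R 4.3.3 (lmFit, eBayes with trend) over the 12306 of 26335 genes with a mean above 0 over all 10 libraries, with no covariate and Benjamini-Hochberg adjustment. The difference between library sets was an interaction term fitted on all 10. The threshold for a call was an adjusted p of 0.05. The model was tested on simulated data. Of the 26335 rows, 84 share a symbol with another and 14 carry a date in place of a symbol.

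Genes were named by rule: the 10 largest rises and falls, the 6 largest of each at a mean of 6 or more, up to 2 of the highest and lowest 2-fold members of each list (or the highest and lowest called member), mitochondrial genes, a set of metabolic and lineage genes, the 5 largest and 5 smallest differences between sets, and markers above 10 CPM. A few genes that the rule names are not reported here. Members and lists were chosen with earlier results of these data known. Positions, promoters (RefSeq, GRCm38.p6) and overlaps come from the reference of the same build, and near-identical copies from blastn 2.17.0+ at 95% identity over 300 bases. Python 3.11.15, numpy 2.4.6, pandas 2.3.3, scipy 1.17.1 and matplotlib 3.10.9 were used. Other scalings were quantile normalization, centring on the median, size factors, and totals without mitochondrial and top genes. Further alternatives were limma voom on the recovered reads, other filters and priors, a replicate block and leaving out each library. A fit on all 10 libraries and a fit without the mean-variance trend were also made.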

Additional observations from a re-analysis of the deposited data

Results flagged for a closer look

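The effect of stiripentol differed between the 6 libraries and the other 4 by the interaction term in limma, with a larger log2 change here for 5569 genes and a smaller one for 2223 (adjusted p under 0.05). Among the named genes, 96 of 173 tested passed with a difference of at least 2-fold, and 16 moved at least 2-fold in opposite directions in the 2 sets.

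The differences, given as the log2 change here minus that in the other set, included those of the glutathione S-transferase genes Gsta3 (9.39), Gsta1 (8.47) and Gsta2 (8.47). The effect was also higher here for the arginine deiminase gene Padi3 (6.49), the kidney cadherin gene Cdh16 (5.17), the homeobox gene Dlx3 (4.90), Cnn1 (4.31), Foxa2 (3.94) and Hmox1 (3.70). Uchl1 (3.19), the imprinted gene Peg3 (3.08), the claudin gene Cldn4 (2.96), the zinc transporter gene Slc39a4 (2.91), the pro-apoptotic gene Bik (2.84) and Hk2 (2.48) were also higher here and lower in the other set. On the other side, the effect was lower here for Col3a1 (-4.61), the small proteoglycan gene Dcn (-3.76), the protease inhibitor gene Serpine2 (-3.09) and the protease gene Pappa2 (-2.92). Dcn fell by 2.00 here and rose by 1.76 in the other set. With limma, the adjusted p of the difference ran from 2.67e-09 for Gsta2 to 0.00106 for Pappa2.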

How the results depend on the processing

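No named gene that was called changed direction under any alternative, and 8 of 166 lost the call under at least 1 of them: Cnn1, Itga1, Mmp17, Mxd3, Tubb3, mt-Atp6, mt-Co1 and mt-Nd4l. Without the expression filter, 1810 genes were at least 2-fold higher and 1458 lower, 5 glycolytic genes were higher, 5 DNA replication genes were lower, 11 mitosis genes were higher and 11 epithelial genes were higher, over more genes tested. For the difference between sets, size factors gave 3619 genes on the higher and 4260 on the lower side (1927 and 1459 at least 2-fold), and quantile normalization gave 3568 and 3809 (1591 and 1504). The cause was not tested. Leaving out 1 library at a time gave 3898 to 5333 genes higher and 2730 to 4206 lower, 6 to 23 DNA replication genes lower, 11 to 22 mitosis genes higher and 5 to 11 fatty acid oxidation genes higher. Tfam, not called, turned to -0.002 when values were centred on the median, -0.0143 with size factors and -0.0474 without control 3, with -0.0474 to 0.1228 over single libraries left out. mt-Co2, not called, turned to 0.0111 without control 2, with -0.2925 to 0.0111 over single libraries left out. With a replicate block on the numbers of the paper's replicate table, 4409 genes were higher and 3172 lower. The deviations of same-numbered libraries had correlations of 0.070, -0.054 and -0.037, so the numbers were not taken as pairs. Genes below the filter were not tested.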
